A study of Rattus norvegicus with 4 samples.

Results

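The metabotropic glutamate receptors were followed in rat cortical neurons that had been depolarized with potassium chloride. Their members were all probe sets whose gene symbol in the platform annotation is Grm2, Grm3, Grm4, Grm5, Grm6, Grm7 or Grm8, which gave 9 of the 1263 probe sets on the array that are not manufacturer's controls. All 7 genes were present, of 720 genes with a symbol of their own on the array. Grm7 had 3 probe sets and each of the other genes had 1. By the usual division of the family, 1 probe set belonged to group I (Grm5), 2 to group II (Grm2 and Grm3) and 6 to group III (Grm4, Grm6, Grm7 and Grm8).

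Cortex was taken from rat embryos at day 17, and its neurons were grown for 14 days in Neurobasal medium with B27 supplement. The KCl group received 25 mM KCl for 4 h and the control group received phosphate-buffered saline for 4 h, with 2 arrays in each group. The labels give neither a strain nor a genotype, and they do not say whether replicate arrays stand for different cultures. The p-values therefore cover the spread among these 4 arrays, which may be technical. The groups follow the titles and treatment protocols, while the description of every sample, KCl included, names a non-activated state.

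Metabotropic glutamate receptors are G protein-coupled receptors that bind glutamate and act more slowly than the glutamate-gated ion channels. Group I receptors couple to Gq, which activates phospholipase C, releases calcium from internal stores and activates protein kinase C. Group II and group III receptors couple to Gi and Go, which inhibit adenylyl cyclase, and many of them sit on nerve terminals, where they reduce transmitter release.

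Of the 8 receptor probe sets bright enough to be tested, 1 was lower after KCl, 0 were higher and 7 did not pass. The one that passed was D16817_g_at of Grm7, the group III receptor of the presynaptic active zone, which fell 1.62-fold. Over all 947 tested probe sets, 10.8% were called in either direction, 5.49% higher and 5.28% lower, so that 1 call in 8 lies near the share on the whole array. A probe set is called here at a limma p-value below 0.05 after Benjamini-Hochberg adjustment over the 947. At an unadjusted p below 0.05 there were 2 of the 8, both of Grm7, against 25.6% of all tested probe sets. The median log2 change of the 8 was 0.08, against −0.10 over all tested probe sets, and 4 of the 8 lay below 0, as did 571 of the 947. The arrays of the 2 groups did not overlap on 5 of the 8 (58.0% of all tested probe sets), with KCl lower on 3 of them (36.5%), all of Grm7.

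**Figure D1:**
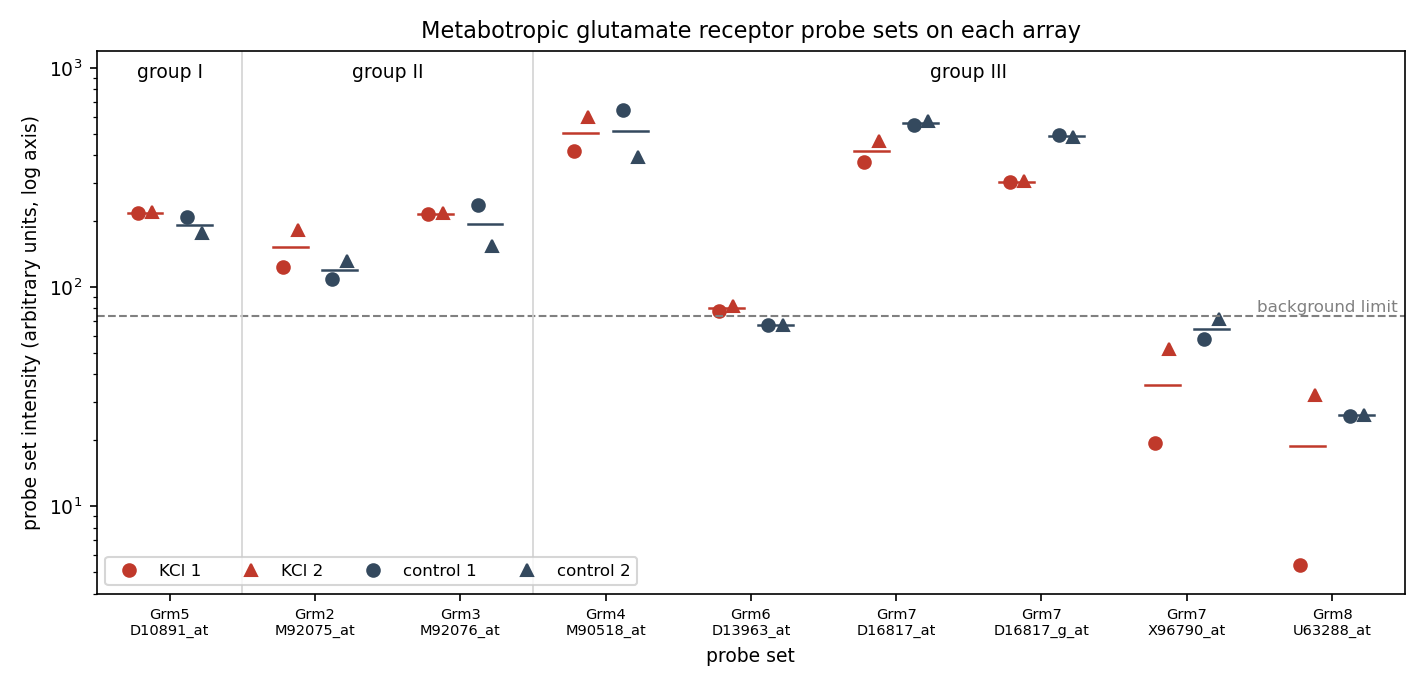
Intensity (log axis, arbitrary units) of the 9 receptor probe sets on the KCl arrays (red) and control arrays (blue), circles for replicate 1 and triangles for replicate 2, with a short line at each group's mean. The dashed line is the background limit of 73.7, and the 2 D16817 probe sets of Grm7 lie above it with both KCl arrays below both control arrays.

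Levels are probe set intensities in arbitrary units on a linear scale. The probes of different genes bind with different strength, so intensities are compared between arrays for the same probe set and are not ranked between receptors. Background was read from 19 control probe sets for Bacillus and yeast genes. Their median was 9.05 and their highest value on any array was 73.7. Arrays of a group that all read 73.7 or less are described as within background. On this scale the single group I probe set and both group II probe sets were above background in both groups. Of the 6 group III probe sets, 3 were above background in both groups, namely those of Grm4 and the D16817 pair of Grm7.

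Group I was represented by Grm5, which encodes the receptor best known for postsynaptic calcium signals and some forms of synaptic plasticity. Its intensity was 218 and 220 on the KCl arrays, against 209 and 176 on the control arrays. The KCl values were nearly equal and stood above both control values, the nearer of which was control 1. The log2 change was 0.19 ± 0.19 (SE, n = 2 arrays per group; limma adjusted p = 0.59). Its 95% interval corresponds to KCl levels between 0.837 and 1.55 times the control level, so a rise or a fall of that size is not excluded by these arrays.

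The group II receptors restrain transmitter release and lower cAMP, and Grm3 is also known from astrocytes. Grm2 had 124 and 182 on the KCl arrays, against 109 and 132 on the control arrays. The groups overlapped, because KCl 1 lay below control 2. Its log2 change was 0.33 ± 0.27 (limma adjusted p = 0.51), and it was 0.05 without KCl 2 and 0.61 without KCl 1. Grm3 had 216 and 217 on the KCl arrays, against 236 and 154 on the control arrays. Both KCl values fell between the 2 control values, which differed 1.53-fold from each other. The log2 change of Grm3 was 0.18 ± 0.24 (limma adjusted p = 0.68), and it was −0.13 without control 2. The intervals for the KCl level relative to control ran from 0.814 to 1.94 for Grm2 and from 0.776 to 1.65 for Grm3.

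Within group III, Grm7 encodes a receptor of low glutamate affinity that is placed at the release site itself. Its probe set D16817_g_at had 301 and 305 on the KCl arrays, against 498 and 483 on the control arrays. The replicates of each group were close, and the gap between the groups was far wider than the gap within either. The means were 303 ± 3 in KCl and 490 ± 10 in control cultures (SD, n = 2 arrays each). The log2 change was −0.69 ± 0.15 by limma (SE; adjusted p = 0.019). The 95% interval places the KCl level at 0.490 to 0.779 times the control level.

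The other probe set of the same design sequence, D16817_at, had 372 and 466 on the KCl arrays, against 552 and 574 on the control arrays. Again both KCl arrays lay below both control arrays, but the KCl pair was less alike than on D16817_g_at. The log2 change was −0.43 ± 0.16 (limma adjusted p = 0.13), which did not pass, and the KCl level lay between 0.576 and 0.951 times the control level by its 95% interval. Without KCl 1 the log2 change was −0.27 (adjusted p = 0.43), and without KCl 2 it was −0.60 (adjusted p = 0.014). This is the brightest probe set of Grm7, so a count by the brightest probe set of each gene finds no receptor changed. By their identifiers both probe sets were designed from 1 sequence, so they are not independent readings of the transcript. The third probe set, X96790_at, had 19.5 and 52.1 on the KCl arrays, against 57.8 and 71.5 on the control arrays, and was within background in both groups (limma adjusted p = 0.31). Its KCl values were also the lower ones, but at this brightness no fold is given.

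The call on D16817_g_at was lost without control 1 (log2 change −0.67) and without control 2 (log2 change −0.72), where only the KCl pair is left to give the spread. It was also lost in limma with replicate number as a block (adjusted p = 0.064). The same held for a variance model without the intensity trend (adjusted p = 0.10) and for an ordinary t statistic (adjusted p = 0.12). In all, the call was lost in 5 of the 13 alternatives that were run. The log2 change stayed between −0.72 and −0.67 in all 13. The filters, the replicate block and the other variance models leave this value unchanged by construction. An exact two-sided permutation test of 2 against 2 arrays reaches 0.33 at best, so the call rests on variances shared across probe sets.

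Grm4, the group III receptor long studied at cerebellar parallel fibre synapses, had 418 and 596 on the KCl arrays, against 647 and 391 on the control arrays. The groups were interleaved, and the control arrays differed 1.65-fold from each other. Its log2 change was −0.01 ± 0.26 (limma adjusted p = 0.97), and the 95% interval of the KCl level ran from 0.661 to 1.49 times the control level. The sign of this value changed with the scaling of the arrays and with the array left out.

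Grm6 encodes the receptor of ON bipolar cells in the retina. Its probe set had 78 and 82 on the KCl arrays, against 67.2 and 67.5 on the control arrays. The KCl values stood just above the background limit and the control values just below it. The difference did not pass (log2 change 0.25 ± 0.33; limma adjusted p = 0.68). The probe set of Grm8, another presynaptic group III receptor, had 5.4 and 32.3 on the KCl arrays, against 25.9 and 26.1 on the control arrays. It was within background in both groups and was left out of the test with the dimmest 25% of probe sets, whose mean intensities reached 33.3 (unadjusted p = 0.29 in the fit without that filter).

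**Figure D2:**
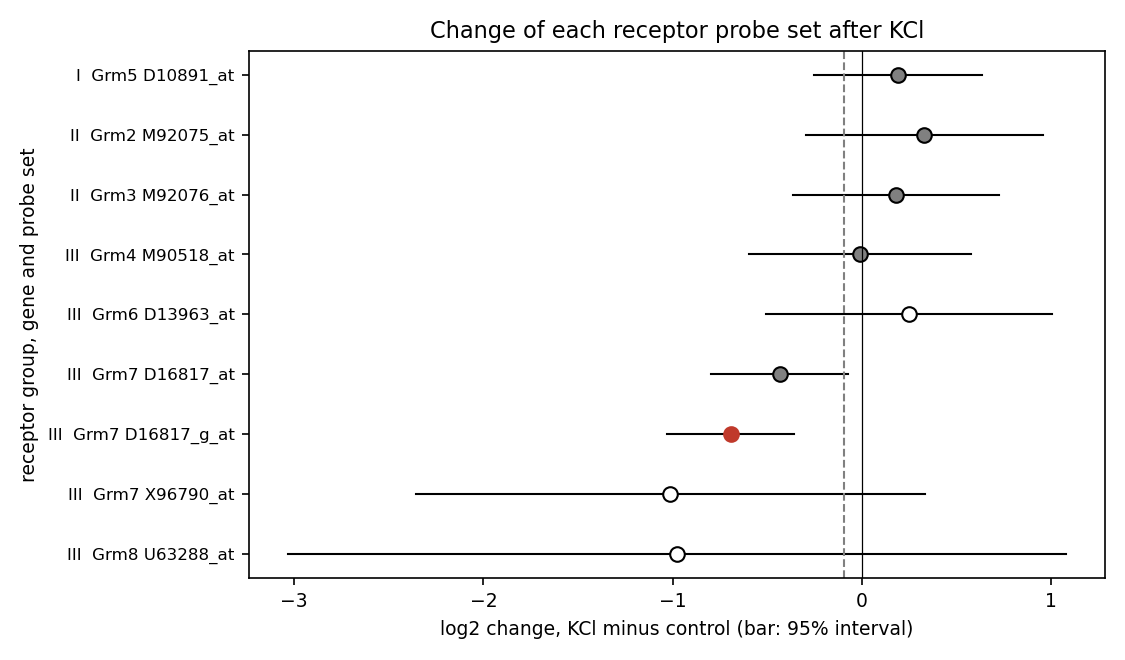
Log2 change (KCl minus control) of each receptor probe set with its 95% limma interval, by receptor group. The red point is Grm7 D16817_g_at at −0.69, white points are probe sets within background in controls, and the dashed line is the median of all tested probe sets at −0.10.

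By receptor group, the mean log2 change over probe sets was 0.19 for group I (1 probe set), 0.25 for group II (2 probe sets) and −0.48 for group III (6 probe sets). The group III mean counts Grm7 on 3 probe sets and includes 3 probe sets within background in controls, whose log2 changes are imprecise. It was −0.29 with 1 probe set per gene and −0.38 over the 3 probe sets above background. These means are descriptions without a test, since each rests on 2 arrays per group and few probe sets. Set to 0 at the control mean, group I stood at 0.18 and 0.20 on the KCl arrays, against 0.12 and −0.12 on the control arrays. Group II stood at 0.11 and 0.40 on the KCl arrays, against 0.08 and −0.08 on the control arrays. In both groups of receptors the KCl arrays lay above the control arrays, in group II by a narrow margin on KCl 1. Taken singly, Grm2 and Grm3 each overlapped between the groups. Of all tested probe sets, 58.0% did not overlap in either direction.

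Group III was also described in parts, without a test of a difference between its genes. On all its probe sets it stood at −0.89 and −0.07 on the KCl arrays, against 0.03 and −0.03 on the control arrays, so that KCl 1 gave most of the difference. Much of that came from the 3 probe sets within background in controls, which stood at −1.26 on KCl 1 and 0.10 on KCl 2. On the 3 probe sets above background, an alternative added after the values were seen, group III stood at −0.52 and −0.24 on the KCl arrays, against 0.12 and −0.12 on the control arrays, a mean change of −0.38. The Grm7 pair stood at −0.65 and −0.48 on the KCl arrays, against −0.004 and 0.004 on the control arrays, whereas Grm4 had a change of −0.01. Among the group III probe sets above background, the called change was on Grm7. The 95% interval of Grm4 overlapped those of both D16817 probe sets.

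Ratios within an array do not depend on the scaling of the arrays. The log2 ratio of Grm7 D16817_g_at to Grm5, set to 0 at its control mean, was −0.89 and −0.88 on the KCl arrays, against −0.10 and 0.10 on the control arrays. The ratio of Grm7 to Grm5 was thus lower on both KCl arrays. The same ratio to Grm3 was −0.88 and −0.87 on the KCl arrays, against −0.28 and 0.28 on the control arrays. To Grm4 it was −0.44 and −0.93 on the KCl arrays, against −0.34 and 0.34 on the control arrays, where KCl 1 and control 1 nearly met. For D16817_at the ratio to Grm4 overlapped between the groups. Its ratios to Grm5 and to Grm3 were lower on both KCl arrays. For Grm3, KCl 2 (−0.46) and control 1 (−0.33) lay near each other. These ratios were chosen after the values were seen and carry no test.

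**Figure D3:**
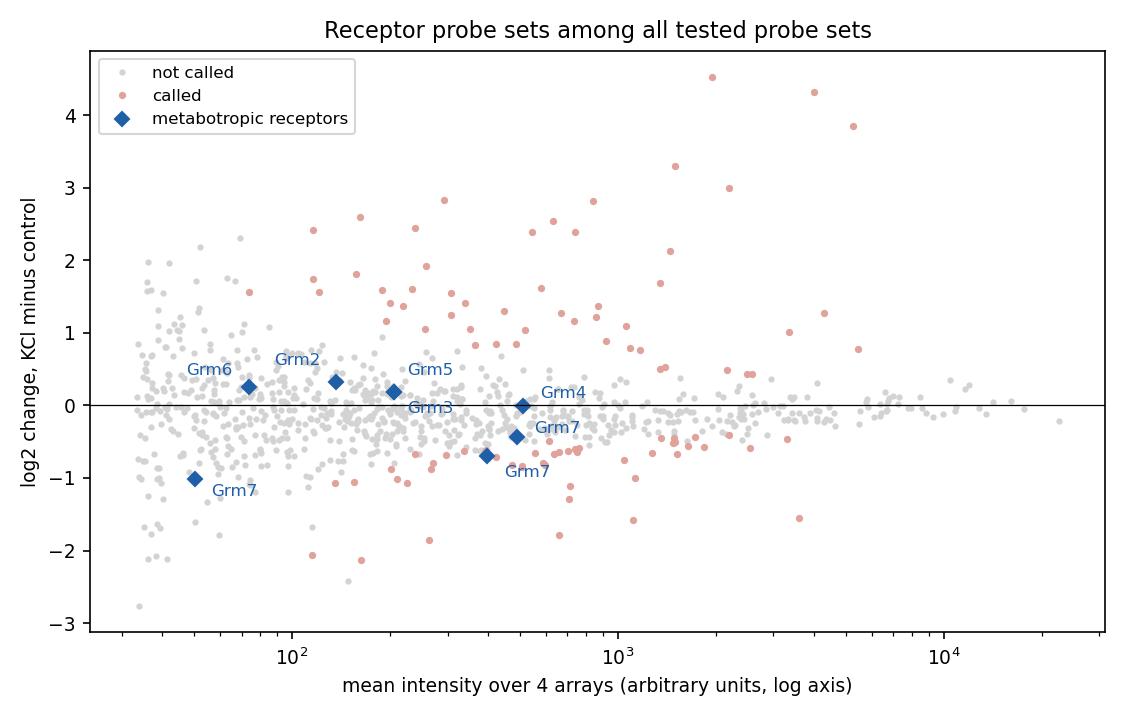
Log2 change (KCl minus control) against mean intensity over the 4 arrays (log axis) for the 947 tested probe sets, with the 8 tested receptor probe sets as blue diamonds. The points of Grm3 and Grm5 cover each other at a mean intensity of 206, and Grm7 D16817_g_at lies among the called probe sets below 0.

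The arrays hold no measurement at the promoter, but the annotated sequence before the start of Grm7, the receptor with the called change, is shown for its context. RefSeq's promoter table for GRCr8 held 4 of the 7 receptor genes (Grm5, Grm6, Grm7 and Grm8). The stretch is chr4:145286476-145286713, plus strand, 238 bases that end at the last base before the annotated start of the gene. Capitals mark GGGCGG, the GC box bound by Sp1-type factors, searched on both strands.
Grm7 promoter: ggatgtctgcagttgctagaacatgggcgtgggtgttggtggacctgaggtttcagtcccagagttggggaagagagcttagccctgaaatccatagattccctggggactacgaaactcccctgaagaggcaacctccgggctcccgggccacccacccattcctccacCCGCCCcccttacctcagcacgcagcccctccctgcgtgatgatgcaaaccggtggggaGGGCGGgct
The stretch had a G and C content of 61.8%, against 52.1% over the first 238 bases of all 33469 promoter windows in the table. It held 2 GC boxes, and 29.3% of those windows held at least 1. The cAMP response element TGACGTCA, through which CREB acts on many activity-regulated genes, was searched on both strands. It had 0 matches, as did its shorter form TGACG, which lies within it, while 1.5% and 17.2% of the windows held these letters. A missing match says only that the letters are not in this window.

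The partners through which these receptors signal were followed in 4 lists of G proteins, Gq effectors, Gi and Go effectors, and scaffolds and regulators. Of their 104 gene symbols, some of them older names of a listed gene, 19 had a tested probe set. By the brightest probe set of each gene, 0 of the 19 rose, 0 fell and 19 did not pass in limma, and the 5 with unadjusted p-values below 0.05 all had lower KCl means. A count of 5 in 19 lies near the 25.6% over all tested probe sets. The median log2 change of the 19 was −0.21, against −0.10 over all tested probe sets. On all 35 tested probe sets of these genes, 2 were called (10.8% over all tested), both lower, on less bright probe sets of Prkcb and Arrb2. Less bright probe sets of Gnb1 and Kcnj3 had higher KCl values at an unadjusted p below 0.05 and were not called.

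The G protein list had 3 tested genes, none of which passed, with log2 changes from −0.16 to 0.20. Gnb2, which encodes a β subunit and had the highest mean intensity of the list, had 5670 and 5853 on the KCl arrays, against 6156 and 6769 on the control arrays. Both KCl values were the lower ones (log2 change −0.16 ± 0.10; limma adjusted p = 0.35). Gnao1, which encodes the α subunit of Go, had 6915 and 4911 on the KCl arrays, against 5542 and 5732 on the control arrays. The groups overlapped (log2 change 0.05 ± 0.15; limma adjusted p = 0.87). Gnb1, the gene of another β subunit, had a log2 change of 0.20 on its brightest probe set and 0.06 to 0.38 on its other 4, of which rc_AI227660_s_at had the largest (unadjusted p = 0.012, limma adjusted p = 0.082).

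Of the Gq effectors, the pathway of group I, 4 genes were tested and none passed on its brightest probe set, with a median log2 change of −0.28. Prkcb, which encodes a protein kinase C, had 2294 and 2158 on the KCl arrays, against 2515 and 2462 on the control arrays, on its brightest probe set (log2 change −0.16 ± 0.10; limma adjusted p = 0.37). Both KCl values lay below both control values there. On K03486_s_at it had 1176 and 1113 on the KCl arrays, against 1630 and 1507 on the control arrays, and this probe set was called lower (log2 change −0.45 ± 0.11; limma adjusted p = 0.038). Plcb1, which encodes the phospholipase C enzyme activated by Gq, had 1012 and 1109 on the KCl arrays, against 1577 and 1237 on the control arrays. Its KCl arrays were the lower ones, with a log2 change of −0.40 ± 0.14 that did not pass (limma adjusted p = 0.13). Itpr1, which encodes the IP3 receptor of internal calcium stores, had −0.39 ± 0.22 (limma adjusted p = 0.30). Prkca, another protein kinase C gene, had 61 and 82.1 on the KCl arrays, against 19 and 44.2 on the control arrays, which were within background (limma adjusted p = 0.19).

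Of the Gi and Go effectors, the pathway of groups II and III, 6 genes were tested and none passed, with a median log2 change of −0.17. Cacna1b, the gene of the N-type calcium channel that presynaptic receptors inhibit, had 774 and 723 on the KCl arrays, against 952 and 938 on the control arrays. The KCl pair lay below the control pair (log2 change −0.34 ± 0.12; limma adjusted p = 0.13), while the other probe set of the gene had −0.08. Cacna1a, the gene of the P/Q-type channel, had a log2 change of 0.01 ± 0.15. Prkar2b, which encodes a regulatory subunit of protein kinase A, had 232 and 293 on the KCl arrays, against 379 and 352 on the control arrays (limma adjusted p = 0.13). Kcnj3 and Kcnj5, genes of potassium channels opened by G proteins, did not pass, and Kcnj3 was at most 82.4 on any array of its brightest probe set. Its other probe set, U72410_s_at, at 50.5 and 58.9 on the KCl arrays, against 19 and 14.7 on the control arrays, was within background in both groups (unadjusted p = 0.030).

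Of the scaffolds and regulators, 6 genes were tested and none passed on the brightest probe set, with log2 changes from −1.12 to −0.03. Calm2, a calmodulin gene and the brightest of the list, had 5623 and 5987 on the KCl arrays, against 5678 and 6139 on the control arrays. The groups overlapped (log2 change −0.03 ± 0.10; limma adjusted p = 0.90). Grk2 and Grk3 encode kinases that desensitize G protein-coupled receptors. Grk2 had 192 and 171 on the KCl arrays, against 316 and 240 on the control arrays (limma adjusted p = 0.11), and Grk3 had 47 and 101 on the KCl arrays, against 162 and 139 on the control arrays (limma adjusted p = 0.11). In both genes the KCl arrays lay below the control arrays without passing. Arrb2, which encodes a β-arrestin, was called lower on rc_AA964003_s_at, with 187 and 181 on the KCl arrays, against 288 and 296 on the control arrays (log2 change −0.67 ± 0.18; limma adjusted p = 0.047). Its brightest probe set overlapped between the groups (log2 change −0.21 ± 0.16; limma adjusted p = 0.45), and none of its other 3 passed.

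The calls on Prkcb and Arrb2 were lost without control 1 (adjusted p = 0.25 and 0.22) and without control 2 (adjusted p = 0.23 and 0.28). In all, Prkcb K03486_s_at did not pass in 7 and Arrb2 rc_AA964003_s_at in 8 of 13 alternatives, among them quantile normalization (adjusted p = 0.076 and 0.065) and no filter on dim probe sets (adjusted p = 0.058 and 0.072). Arrb2 also did not pass with median centring (adjusted p = 0.053). Without KCl 2, Grk3, Plcb1 and Prkar2b were called lower on their brightest probe sets. Plcb1, Cacna1b, Prkar2b, Grk2 and Grk3 are the 5 genes with an unadjusted p below 0.05 and were named after their values were seen. Genes of the Homer and Shank scaffolds, which bind group I receptors, had no tested probe set under their symbol. The annotation leaves 118 probe sets of the array without a symbol, some of them called, and some could measure the Homer and Shank genes. The lists therefore do not show whether these scaffolds changed.

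**Figure D4:**
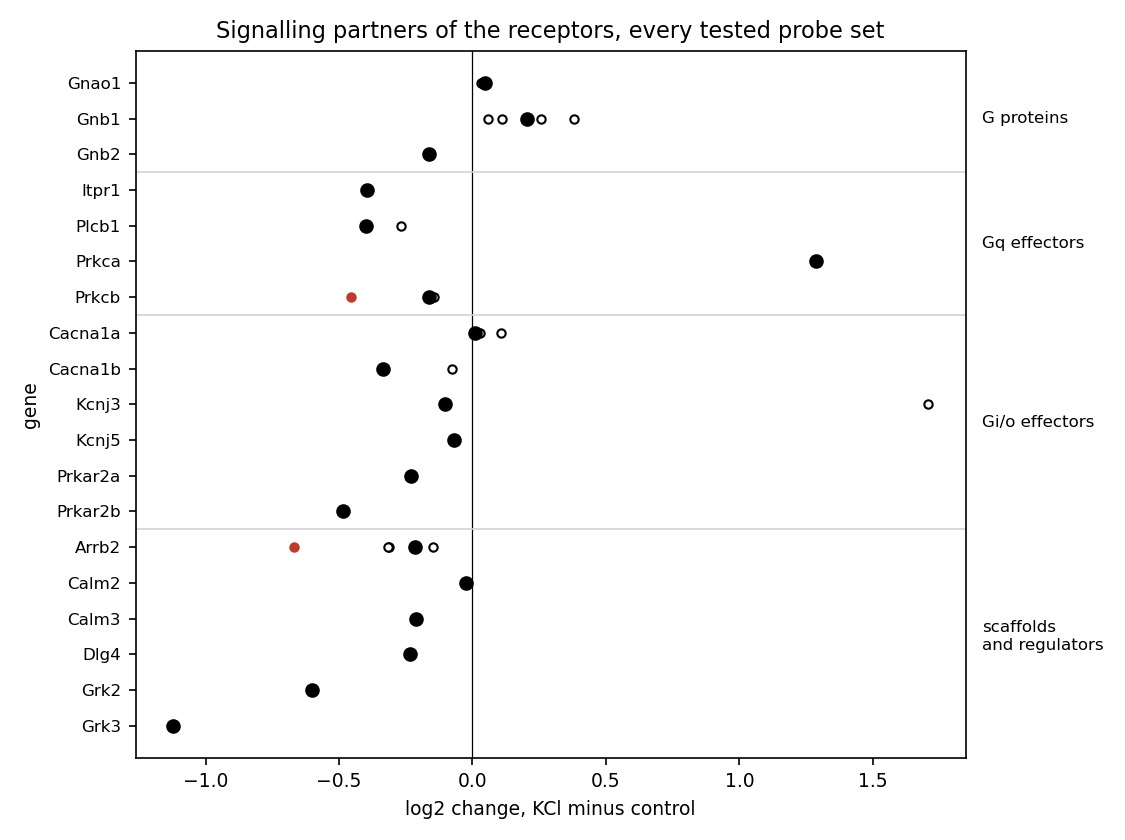
Log2 change (KCl minus control) of every tested probe set of the 19 signalling genes, by list. Large points are the brightest probe set of a gene, small open points its other probe sets, and red points the 2 called ones, of Prkcb at −0.45 and Arrb2 at −0.67.

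The probe sets most like a receptor were found by the root mean square difference of log2 intensities over the 4 arrays, after each was centred on its own mean, among 845 tested probe sets of other genes. With 4 arrays such likeness is a description only. For Grm5 they were Cngb1, Ckb and a probe set of Bdnf, S76799_at, with differences of 0.02, 0.03 and 0.03 on the log2 scale, none of them called. For Grm3 they were Tacr1, Chrnb4 and Syt9 (0.06 to 0.07), and for Grm4 Chrna4, Scn9a and Igfbp6 (0.08 to 0.09), again with none called. For Grm7 D16817_g_at, added after its values were seen, they were Sncb (0.03), the Arrb2 probe set named above (0.04) and Itpka (0.05). Sncb, which encodes β-synuclein, had 501 and 479 on the KCl arrays, against 794 and 770 on the control arrays. These 3 were all called lower, as likeness to a called probe set makes probable.

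The cell make-up of the cultures bears on receptors that neurons and glia both use. In whole cultures, fewer cells of a type and less RNA per cell cannot be told apart. All 10 tested neuron markers were above background, with 1 of 10 called (Snap25, higher). At an unadjusted limma p below 0.05 there were 3 of 10 (25.6% of all tested probe sets), the others being Syp and Syn2, both lower. The summed intensity of the neuron markers was 31453 to 32212 on the KCl arrays, against 33432 to 34580 on the control arrays. Of 7 tested astrocyte markers 6 were called higher, and their summed intensity was 9974 to 12551 on the KCl arrays, against 5220 to 5484 on the control arrays. Without control 1 and without control 2, 0 of the 7 were called. The 4 tested inhibitory neuron markers summed to 3094 to 3702 on the KCl arrays, against 8374 to 8893 on the control arrays. Of these Npy had 614 and 805 on the KCl arrays, against 602 and 598 on the control arrays, and was not called. The other 3 were called lower (Gad1, Slc32a1 and Sst). Without control 1, and likewise without control 2, 1 of these was called. Markers of oligodendrocytes were within background for 3 of 5 genes and those of microglia for 2 of 2. The 1 tested marker of endothelium and fibroblasts, Vcam1, had 129 and 131 on the KCl arrays, against 76.9 and 80.9 on the control arrays, and was not called (unadjusted p = 0.026). No tested marker was at 0. The part of these shifts in the values of Grm7 and Grm3 was not tested. For RNA integrity, the hexokinase controls had a 3′ to 5′ ratio of 2.49 and 2.67 on the KCl arrays, against 2.25 and 2.00 on the control arrays, while the Gapdh ratios were 1.19 and 1.17 on the KCl arrays, against 1.17 and 1.23 on the control arrays, and the β-actin ratios were 1.08 and 1.08 on the KCl arrays, against 1.08 and 1.12 on the control arrays. The part of RNA integrity was not tested.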

How the data were processed

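Biotin-labelled cRNA from 5 µg of total RNA was hybridized to 1-colour Affymetrix neurobiology arrays, per the labels' protocols. The deposited table gives a linear intensity for 1322 probe sets on each of 4 arrays. The sources used here do not give how the probes were summarized and scaled. The 2% trimmed means of the arrays lay between 502.0 and 502.4, so the intensities were used as deposited and taken to log2.

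Symbols came from the platform annotation, which gave 1 symbol to 1137 probe sets, several to 8 and none to 118 of the 1263 that remained after 59 controls were left out. The dimmest 25% by mean over the 4 arrays (316) were left out, and 947 were fitted in limma 3.58.1 (R 4.3.3) with eBayes and an intensity trend. Tests were two-sided, with Benjamini-Hochberg adjustment over the 947.

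The receptors, the signalling lists and the marker lists were chosen with earlier results of these data known. Named genes were every receptor probe set, every called gene of a signalling list and the brightest gene of each signalling list. Also named were the called neuron and inhibitory neuron markers, and the 3 probe sets most like the brightest receptor of each group. The called astrocyte markers were counted without naming them. The other genes named (Gnb1, Gnao1, Itpr1, Plcb1, Prkca, Cacna1a, Kcnj3, Kcnj5, Prkar2b, Grk2, Grk3, Vcam1, Npy, Syp and Syn2) were added with their values known. Alternatives tried were quantile normalization, median centring, scaling to 1 trimmed mean, a pseudocount of 16, no filter or a filter of 50%, a replicate block, each array left out, and 2 other variance models. Precision is limited by the number of arrays, with a median SE of 0.21 for log2 changes.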

Additional observations from a re-analysis of the deposited data

How the results depend on the processing

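The sign of the log2 change of Grm7 held on all 3 of its probe sets in every alternative in which they were fitted, and so did those of Grm2, Grm5 and Grm6. On Grm7, Grm5 and Grm6 the arrays of the groups did not overlap, so leaving out 1 array cannot turn the sign. The filters, the replicate block and the variance models cannot turn it on any probe set. The sign for Grm3 turned without control 2, and the Grm3 values with 1 array left out ran from −0.13 to 0.49. That of Grm4, −0.01 as reported, turned to 0.065 with quantile normalization and 0.012 with median centring, and ran from −0.37 to 0.35 with 1 array left out (0.25 without KCl 1). The receptor probe sets called numbered 1 as reported. They numbered 0 with a replicate block, 0 without the intensity trend and 0 with an ordinary t statistic, with 2, 1 and 2 at an unadjusted p below 0.05, and 0 to 2 with 1 array left out. Without KCl 2 the second was Grm7 D16817_at, which had an adjusted p of 0.43 without KCl 1. With the replicate block D16817_g_at of Grm7 had an adjusted p of 0.064. The 102 calls over all probe sets became 50 with a replicate block, 21 without the trend, 0 with an ordinary t statistic (157 at an unadjusted p below 0.05) and 11 to 178 with 1 array left out. Marker genes called (10) became 6, 2 and 0 under the same 3 settings and 1 to 11 with 1 array left out, and signalling genes called (0) became 0 to 3. The deviations of same-numbered arrays had a correlation of −0.03, so no pattern shared across the array was seen. This cannot tell whether replicate numbers pair the cultures, and the labels do not say. Group means ran from 0.07 to 0.31 (group I), 0.11 to 0.40 (group II) and −0.89 to −0.07 (group III). Low signal limits Grm8, Grm6 and the X96790 probe set of Grm7.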
